A study of Drosophila melanogaster with 6 samples.

Results

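The genes described here are the parts of the circadian clock of Drosophila melanogaster and of its output. They were chosen by name: per, tim, Clk, cyc, vri, Pdp1, cwo, cry, to and Pdf, each through the probe sets that the platform annotation gives to that gene alone. Of these 10 genes, 9 had such a probe set, out of 11982 genes with one on the array, and they had 11 probe sets between them. The gene to (takeout), a clock-controlled output, had no probe set named for it alone in the annotation used and was not analysed here. RNA came from whole male flies of the w1118 strain, which carries a mutation of the white gene and serves as wild type. The LCA flies received food with 50 µmol/l lithocholic acid, a secondary bile acid, and the control flies received control food, both until an age of 30 days. Each diet had 3 Affymetrix arrays, and each array carried RNA from a pool of 10 flies. The time of day at which the flies were collected is not in the labels.

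In the fly clock, CLOCK and CYCLE, the proteins of Clk and cyc, bind E-box sequences as a pair and switch on per and tim, whose proteins later enter the nucleus and stop their own transcription. The same pair drives vri and Pdp1, whose products repress and activate Clk, and cwo, whose product competes for E-boxes. The RNAs of per, tim, vri, Pdp1 and cwo peak in the evening or early night, and those of Clk and cry around dawn, so samples collected at different times of day differ in opposite ways in the 2 sets. Cryptochrome, the protein of cry, is a blue-light photoreceptor that resets the clock by triggering the loss of TIM, and Pdf encodes the neuropeptide with which a few brain neurons keep the others in step. In a whole fly, clock RNA comes from photoreceptors, glia and a small number of neurons, and also from fat body, Malpighian tubules and other peripheral tissues.

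Values are log2 signals as deposited, and their normalization is not given in the sources used here. If the arrays were scaled to each other, a shift shared by most transcripts would not show in full. Whether pools fed the same diet were reared apart is not in the labels, so the p-values reflect only how much these pools differ, which may be partly technical. The median signal of an array lay between 6.38 and 6.39 in LCA arrays and between 6.31 and 6.35 in control arrays. Setting the medians of all arrays equal (median centring) shifted the median difference of all probe sets by −0.048. On the first principal component control replicate 1 lay apart from the rest, at 42.7, against −21.4 to 15.4 for the other 5 arrays. The log2 difference between 3′ and 5′ control probe sets, which grows as RNA is degraded, lay between 3.45 and 3.61 in LCA arrays and between 2.97 and 3.43 in control arrays. The number of arrays limits the precision, and in RNA of whole flies fewer cells of a type and less RNA per cell cannot be told apart.

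Clk and Pdf read higher and cry read lower in LCA flies, with no overlap between the diets, while the 5 evening genes and cyc overlapped. None of the 9 genes passed limma's adjusted threshold of 0.05, and the smallest adjusted p among them was 0.164. Over all 18769 probe sets limma placed 0 (0%) under that threshold. At an unadjusted p under 0.05, limma counted 3 of the 9 clock genes, 2 higher and 1 lower in LCA flies. The same rule held for 16.1% of all probe sets, 7.53% higher and 8.59% lower. The diets did not overlap in the same 3 clock genes, and in 22.5% of all probe sets, 9.38% higher and 13.2% lower. With so few genes, 3 of 9 against these shares is not a result about the clock genes as a set. Their median difference was 0.08 on the log2 scale, and that of all probe sets was −0.0090.

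**Figure D1:**
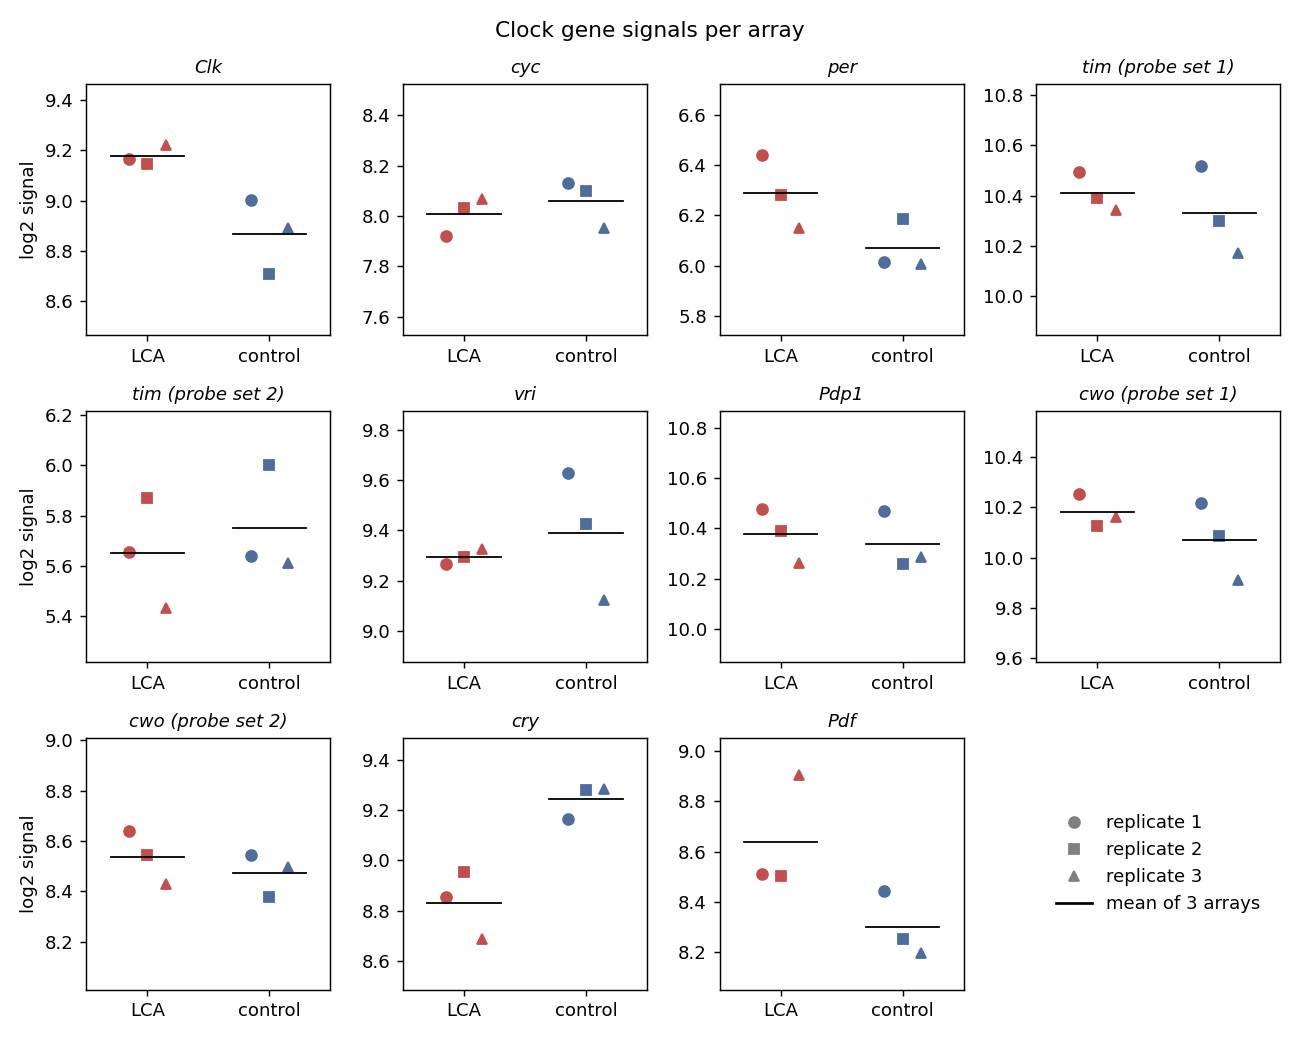
Log2 signal of each clock probe set (y axis, a span of 1 log2 unit in every panel) in LCA and control arrays, with 1 point per array, the marker showing the replicate number and the line the mean of 3 arrays. In Clk and Pdf all LCA points lie above all control points, in cry all lie below, and in the other panels the diets overlap.

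Clk encodes the bHLH-PAS activator that starts each cycle. Its log2 signal was 9.17, 9.15 and 9.22 in LCA replicates 1 to 3, against 9.002, 8.71 and 8.89 in control replicates 1 to 3. All LCA pools lay above all control pools, and the LCA pools lay closer together, with a range of 0.07 against 0.29 in control pools. The difference was 0.31 ± 0.10 (SE, 3 arrays per diet), a ratio of 1.24, with a 95% confidence interval of 0.08 to 0.54 and a limma adjusted p of 0.235. It was 0.38 without control replicate 1 and 0.23 without control replicate 2 (limma unadjusted p = 0.055).

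Its partner cyc, which does not cycle in the fly, showed no such separation. Its log2 signal was 7.92, 8.03 and 8.07 in LCA replicates and 8.13, 8.10 and 7.95 in control replicates. The lowest pool was an LCA pool and the next lowest a control pool. The difference of −0.05 ± 0.09 (SE) had a 95% confidence interval of −0.26 to 0.16 and a limma adjusted p of 0.808. It was −0.01 without LCA replicate 1 and −0.11 without control replicate 3.

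The core repressor per had log2 signals of 6.44, 6.28 and 6.15 in LCA replicates and 6.02, 6.19 and 6.01 in control replicates. LCA pools were higher on average, but LCA replicate 3 lay under control replicate 2. The difference was 0.22 ± 0.11 (SE), with a 95% confidence interval of −0.03 to 0.47 and a limma adjusted p of 0.338. The mean signal of per was below the median of all probe sets, as only 48.1% of them had a lower mean. The difference was 0.15 without LCA replicate 1 and 0.29 without LCA replicate 3.

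The partner repressor tim had 2 probe sets, and they did not point the same way. The brighter one read 10.50, 10.39 and 10.34 in LCA replicates and 10.52, 10.30 and 10.17 in control replicates. Its highest and its 2 lowest pools were all control pools, and the difference was 0.08 ± 0.11 (SE; 95% confidence interval −0.18 to 0.34, limma adjusted p = 0.756). This difference was 0.0029 without control replicate 3, 0.04 without LCA replicate 1, 0.175 without control replicate 1 and 0.03 under median centring. The dimmer one read 5.66, 5.87 and 5.43 in LCA replicates and 5.64, 6.001 and 5.61 in control replicates, a difference of −0.10 ± 0.15 (SE; limma adjusted p = 0.792). Its difference lay between −0.21 without LCA replicate 2 and 0.03 without control replicate 2. In it replicate 2 was the highest pool of either diet, an order that the brighter probe set does not share.

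The bZIP pair that acts on Clk was also without separation. For vri, the repressor of Clk, the log2 signal was 9.27, 9.29 and 9.33 in LCA replicates and 9.63, 9.42 and 9.12 in control replicates. All LCA pools fell between the highest and the lowest control pool, with a range of 0.06 in LCA and 0.51 in control pools. The difference was −0.10 ± 0.13 (SE; 95% confidence interval −0.41 to 0.22, limma adjusted p = 0.763) and was 0.02 without control replicate 1 and −0.23 without control replicate 3.

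For Pdp1, the activator of Clk, the log2 signal was 10.48, 10.39 and 10.26 in LCA replicates and 10.47, 10.26 and 10.28 in control replicates. The 2 diets covered nearly the same range, 0.215 in LCA and 0.212 in control pools. The difference of 0.04 ± 0.10 (SE) had a 95% confidence interval of −0.19 to 0.27 and a limma adjusted p of 0.879. Its sign turned under median centring (−0.0085), without LCA replicate 1 (−0.01) and without control replicate 2 (−0.00024).

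The repressor cwo had 2 probe sets that agreed in sign. The brighter read 10.25, 10.13 and 10.16 in LCA replicates and 10.22, 10.09 and 9.91 in control replicates, a difference of 0.11 ± 0.10 (SE; limma adjusted p = 0.622). That difference was 0.03 without control replicate 3, 0.18 without control replicate 1 and 0.06 under median centring. The dimmer read 8.64, 8.54 and 8.43 in LCA replicates and 8.54, 8.38 and 8.50 in control replicates, a difference of 0.06 ± 0.09 (SE; limma adjusted p = 0.774), and it was 0.01 without LCA replicate 1, 0.02 without control replicate 2 and 0.12 without LCA replicate 3. In both, LCA replicate 1 was the highest pool, followed by control replicate 1, and the diets overlapped.

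The light receptor cry had the lowest p of the clock genes. Its log2 signal was 8.85, 8.95 and 8.69 in LCA replicates and 9.16, 9.28 and 9.28 in control replicates. Every LCA pool lay below every control pool, and LCA replicate 3 was the lowest. The difference was −0.41 ± 0.10 (SE, 3 arrays per diet), a ratio of 0.752 of LCA to control, with a 95% confidence interval of −0.64 to −0.18. limma gave an unadjusted p of 0.00377, which 2.27% of all probe sets undercut, and an adjusted p of 0.164. The difference was −0.45 without control replicate 1 and −0.34 without LCA replicate 3.

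The output neuropeptide gene Pdf had log2 signals of 8.51, 8.50 and 8.90 in LCA replicates and 8.45, 8.25 and 8.20 in control replicates. The LCA pools were the 3 highest, but LCA replicate 3 lay well above the others and LCA replicate 2 was only slightly above control replicate 1. The difference was 0.34 ± 0.14 (SE), a ratio of 1.27, with a 95% confidence interval of 0.02 to 0.66 and a limma adjusted p of 0.294. It was 0.21 without LCA replicate 3, and 0.41 without control replicate 1. At an unadjusted p under 0.05, limma counted 1 clock gene, cry, without control replicate 2.

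**Figure D2:**
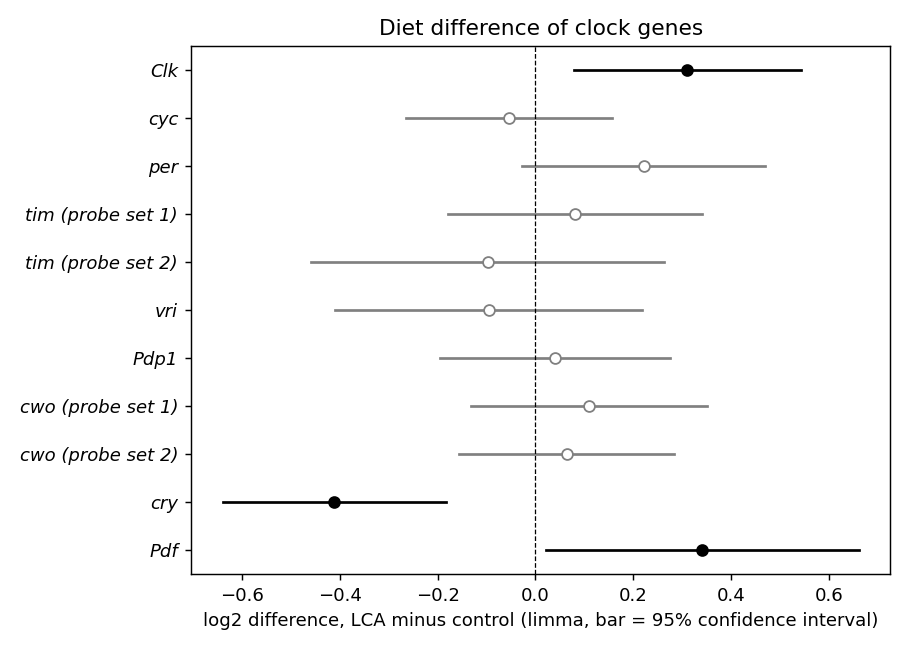
Log2 difference (x axis, LCA minus control) of each clock probe set with its 95% confidence interval from limma. Filled black points are probe sets whose diets do not overlap (Clk at 0.31, Pdf at 0.34 and cry at −0.41), and open grey points are those that overlap, all with intervals that include 0.

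The spread between pools is given here for each clock gene. Whether the pools were taken at a like clock phase was not tested. The 5 evening genes, each by its brightest probe set, spanned between 0.22 (Pdp1) and 0.51 (vri) on the log2 scale over all 6 arrays, or 1.17-fold to 1.42-fold. The median range over all probe sets was 0.41. The ranges of per (0.43) and vri lay above it, and those of tim, Pdp1 and cwo below. The within-diet SD was under the median of all probe sets, 0.136, in 8 of 11 clock probe sets. These 8 include that of cyc, whose RNA does not cycle in the fly. The exceptions were vri with 0.182, Pdf with 0.186 and the dimmer tim probe set with 0.218. The median over the 11 was 0.118.

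The evening genes shared part of their order across arrays. Control replicate 3 was the lowest array for 4 of the 5 (per, tim, vri and cwo), and Pdp1 was lowest in control replicate 2. LCA replicate 1 and control replicate 1 were the 2 highest arrays for 3 of the 5 (tim, Pdp1 and cwo). In per, control replicate 1 was the second lowest array, and in vri, LCA replicate 1 was. The mean of the 5, each centred on its own mean over the 6 arrays, was 0.11, 0.02 and −0.03 in LCA replicates 1 to 3 and 0.09, −0.03 and −0.18 in control replicates 1 to 3. A low control replicate 3 was not particular to these genes. Among the lists described below, it was also lowest by median for light input (−0.036), cofactors (−0.12) and neuropeptides (−0.15). The same held for cycling outputs (−0.13) and neuron markers (−0.31). It was not lowest for the kinases, the takeout relatives or the other tissue markers.

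Clk and cry, whose RNAs peak together around dawn in the fly, lay on opposite sides of the diet comparison. Clk was highest and cry lowest in LCA replicate 3. In control replicate 2, Clk had its lowest value and cry its second highest. The mean of the 2 centred values was −0.02, 0.02 and −0.07 in LCA replicates and 0.05, −0.04 and 0.06 in control replicates, so that their opposite differences cancelled. The centred Clk value minus the centred cry value was 0.33, 0.21 and 0.55 in LCA replicates and −0.15, −0.56 and −0.38 in control replicates.

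The dawn pair minus the 5 evening genes gives 1 value per array, in which a shift of the whole clock would move both terms. Whether this value tracks clock phase here was not tested. Its dawn term lay only between −0.07 and 0.06, as Clk and cry had opposite differences, and its evening term between −0.18 and 0.11. The value was −0.13, −0.0012 and −0.05 in LCA replicates and −0.04, −0.01 and 0.23 in control replicates. The diets overlapped, and control replicate 3 was the only array above 0. It averaged −0.06 ± 0.07 over the LCA pools and 0.06 ± 0.15 over the control pools (SD, n = 3 each). The difference of the means was −0.12, and −0.04 without control replicate 3. It is given without a test, because the score is built from genes that were chosen with earlier results of these data known.

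**Figure D3:**
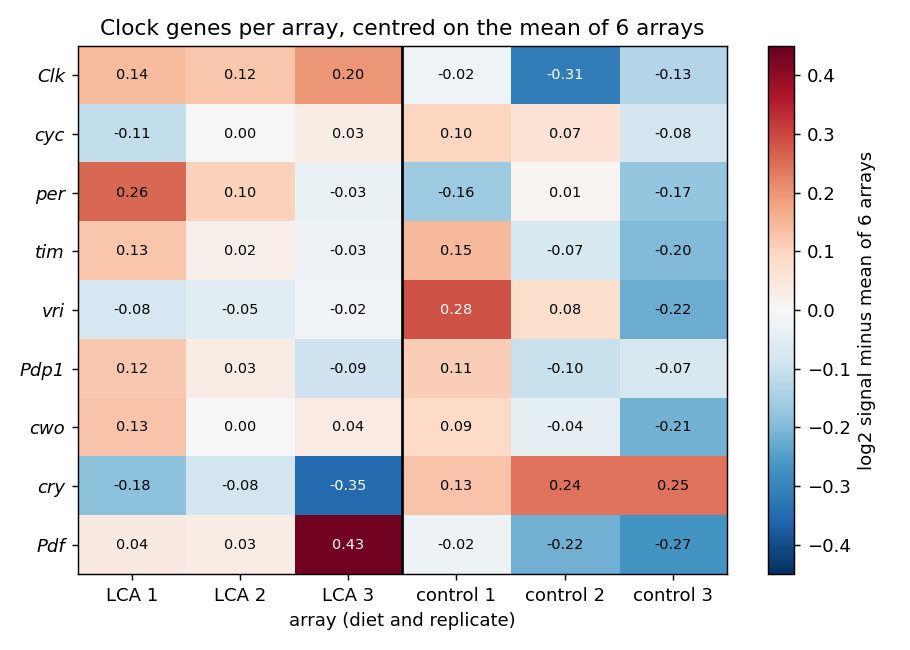
Log2 signal of 9 clock genes (rows, brightest probe set of each) in 6 arrays (columns, LCA left of the line and control right of it), as the difference from the gene's mean over the 6 arrays, red for higher and blue for lower. Clk and Pdf are mainly red in LCA columns and cry is blue there, while tim, Pdp1 and cwo are red in replicate 1 of both diets and blue in control replicate 3.

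The 3 LCA pools lay closer together than the 3 control pools in 5 of the 9 clock genes (Clk, cyc, tim, vri and cwo) and further apart in 4 (per, Pdp1, cry and Pdf). Over all probe sets the LCA range was the narrower in 63.8%. These counts were not tested against each other.

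Pdf had the widest range over the 6 arrays of the clock genes, 0.71. Among 11973 other genes, the 5 whose centred profile lay closest to it by root-mean-square difference over the 6 arrays were 2mit (0.021), CG33543 (0.035), Nlg4 (0.043), CG13928 (0.048) and CG34033 (0.057). Nlg4 is a neuroligin, a synaptic adhesion protein. 2mit read 7.17, 7.09 and 7.52 in LCA replicates and 7.05, 6.85 and 6.81 in control replicates, with the same high LCA replicate 3 as Pdf.

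Genes around the clock were described from 6 lists, and 0 of their 69 genes passed limma's adjusted threshold (smallest adjusted p = 0.0983). At an unadjusted p under 0.05, limma counted 10 that were higher and 9 that were lower in LCA flies. That is 27.5% of the 69, beside 16.1% of all probe sets (7.53% higher and 8.59% lower), and nothing particular to the lists is read from it. By sign alone, 47.9% of all probe sets were higher and 52.1% lower in LCA flies. These shares belong beside the counts of each list and marker set below. The median difference of the 69 was −0.04, beside −0.0090 for all probe sets.

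Kinases and phosphatases set the pace of the clock by adding phosphate to and removing it from PER and TIM. Of 5 measured genes, 4 were lower in LCA flies, 2 of them at an unadjusted p under 0.05, and 0 passed the adjusted threshold (median −0.21). The median was −0.09 without control replicate 1 and −0.32 without control replicate 3. Over probe sets with the plain suffix _at it was −0.65, which is the value of Pp1alpha-96A. The brightest probe sets of dco, CkIalpha, tws and wdb do not carry the plain suffix. Pp1alpha-96A, a catalytic subunit of protein phosphatase 1, read 9.89, 9.75 and 9.69 in LCA replicates and 10.51, 10.37 and 10.38 in control replicates. The diets lay well apart, with a difference of −0.65 ± 0.09 (SE; limma adjusted p = 0.0983). The protein phosphatase 2A subunits tws and wdb differed by −0.32 ± 0.10 and −0.21 ± 0.12 (SE), and CkIalpha, a casein kinase, by −0.18 ± 0.11. dco, the casein kinase known as Doubletime that marks PER for loss, differed by 0.03.

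Genes of light input and protein turnover went both ways. Of 13 measured, 8 were lower and 5 higher, with 1 higher at an unadjusted p under 0.05 and 0 past the adjusted threshold (median −0.11, and −0.02 without control replicate 1). Cul3, a cullin of a ubiquitin ligase that acts on TIM, read 10.35, 10.53 and 10.66 in LCA replicates and 9.59, 10.00 and 10.35 in control replicates. LCA replicate 1 lay level with control replicate 3 and the other LCA pools lay above all control pools, and the difference was 0.53 ± 0.19 (SE; limma adjusted p = 0.276). gl, the transcription factor of photoreceptor development, differed by 0.31 ± 0.14, qsm, a light-response gene of clock neurons, by −0.25 ± 0.12, and slmb, the F-box protein that binds phosphorylated PER, by −0.20 ± 0.10 (SE).

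Of 9 cofactors and translation factors, 3 were higher and 6 lower, with 2 higher at an unadjusted p under 0.05 and 0 past the adjusted threshold. The median was −0.03, with 0.06 without control replicate 1 and −0.10 without control replicate 3. Usp8, a deubiquitinase that acts on CLOCK, differed by 0.20 ± 0.08 and Hr51, a nuclear receptor of clock neurons, by 0.38 ± 0.15 (SE), and in both the diets did not overlap. tyf, which aids translation of per, differed by −0.21 ± 0.12 and kay, a Fos factor, by −0.25 ± 0.16 (SE).

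Neuropeptides and membrane proteins of clock output were mostly higher in LCA flies. Of 16 measured, 10 were higher and 6 lower, with 4 higher and 2 lower at an unadjusted p under 0.05 and 0 past the adjusted threshold. The median was 0.18, and 0.09 without LCA replicate 3 or without control replicate 3. The PDF receptor gene Pdfr went against its ligand: it read 6.25, 6.24 and 5.93 in LCA replicates and 6.51, 6.57 and 6.61 in control replicates. All LCA pools were lower, by −0.42 ± 0.11 (SE; limma adjusted p = 0.184), and LCA replicate 3, where Pdf was highest, was the lowest. The neuropeptide genes Dh31 and NPF differed by 0.31 ± 0.08 and 0.34 ± 0.10, and SLO2, a potassium channel, by 0.38 ± 0.10 (SE).

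Of 10 outputs reported to cycle in fly heads, 8 were higher and 2 lower, with 3 higher at an unadjusted p under 0.05 and 0 past the adjusted threshold (median 0.11). The median was 0.06 without LCA replicate 1, without control replicate 3 or under median centring, and 0.17 without LCA replicate 3. Slob, a regulator of the Slowpoke channel, read 7.997, 8.29 and 8.21 in LCA replicates and 7.60, 7.56 and 7.72 in control replicates. The diets were apart, with a difference of 0.54 ± 0.10 (SE; limma adjusted p = 0.135). trpl, a photoreceptor channel, differed by 0.46 ± 0.10, and CG11891 by −0.21 ± 0.17 (SE). Usp8 and trpl also stand in another of the lists.

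The relatives of to, a family of secreted proteins with a domain like that of juvenile hormone binding proteins, held the largest differences of the 6 lists. Of 17 measured, 13 were lower and 4 higher, with 5 lower and 1 higher at an unadjusted p under 0.05 and 0 past the adjusted threshold. The median was −0.17, and −0.30 when only the brighter probe sets (mean signal over the median) were kept. Jhbp12 read 9.87, 9.59 and 9.04 in LCA replicates and 10.98, 10.61 and 10.93 in control replicates. Every LCA pool was lower, by −1.34 ± 0.22 (SE; limma adjusted p = 0.113). CG11854 read 6.54, 7.05 and 6.59 in LCA replicates and 8.09, 7.60 and 8.22 in control replicates, and its difference was −1.24 ± 0.20 (SE; limma adjusted p = 0.113). Jhbp7 and Jhbp5 differed by −0.71 ± 0.22 and −0.35 ± 0.12 (SE).

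**Figure D4:**
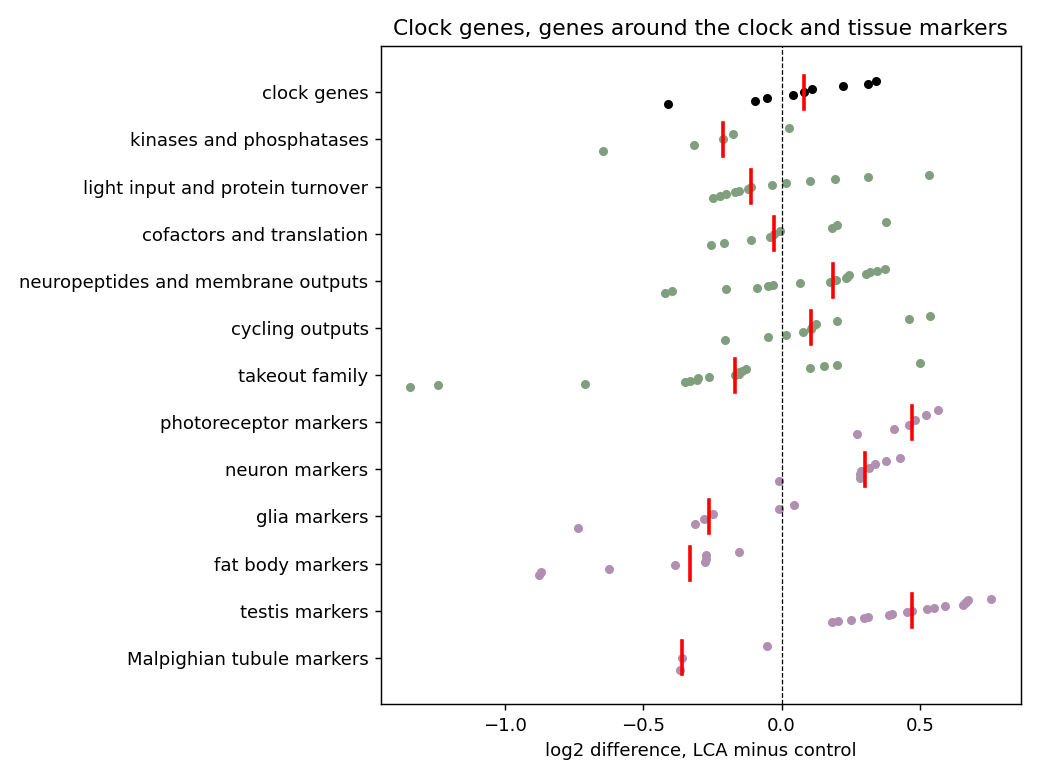
Log2 difference (x axis, LCA minus control) of each measured gene, 1 point per gene, for the clock genes (black), 6 lists of genes around the clock (green) and 6 lists of tissue markers (purple), with the median of each list as a red bar. The clock genes spread around 0 with a median of 0.08, while photoreceptor and testis markers all lie above 0 and fat body markers all below.

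Markers of tissues that hold clocks also differed between the diets. All 6 measured of 14 photoreceptor markers, among them trp and the arrestin gene Arr1, were higher in LCA flies, with no overlap between the diets. Of all probe sets, 9.38% were higher in LCA flies without overlap. Their mean level lay between 11.46 and 11.53 in LCA arrays and between 10.98 and 11.11 in control arrays, and their median difference was 0.47. Of 8 neuron markers measured, 7 were higher (median 0.30), with a mean level of 8.46 to 8.60 in LCA and 8.05 to 8.47 in control arrays. Among the genes described above, Clk, Pdf and Slob were also higher in LCA flies, while cry (−0.41) and Pdfr (−0.42) were lower. The 5 evening genes overlapped between the diets, with 4 of them higher in LCA flies by mean.

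Markers of fat body and Malpighian tubules, and most of those of glia, were lower. All 8 fat body markers were lower (median −0.33), with a mean level of 9.89 to 10.37 in LCA and 10.58 to 10.71 in control arrays. Of 6 glia markers, 5 were lower (median −0.26), with a mean level of 7.45 to 7.55 in LCA and 7.63 to 7.82 in control arrays. All 3 measured Malpighian tubule markers were lower (median −0.36; 7.58 to 7.81 in LCA and 7.92 to 8.13 in control arrays). All 17 testis markers were higher (median 0.47; 9.11 to 9.33 in LCA and 8.31 to 9.14 in control arrays). None of these marker genes passed limma's adjusted threshold. All LCA arrays also exceeded all control arrays in the 3′ to 5′ difference of the control probe sets. The part of any of these in the differences of the clock genes was not tested.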

How the data were processed

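Total RNA of whole flies was turned into biotin-labelled cRNA from 1.5 µg per sample, per the labels' protocols. The deposited table gives log2 signals of 18952 probe sets, as the authors made them. Probe summary, background correction and normalization are not given in the sources used here, and no detection call exists. Of the probe sets, 183 array controls were left out. Of the other 18769, 13647 had 1 gene symbol, 402 several and 4720 none here, from GEO's platform annotation updated through the RefSeq gene table of assembly Release 6 plus ISO1 MT. The table was used for names alone.

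LCA minus control was fitted with limma 3.58.1 in R 4.3.3 (lmFit, eBayes, no covariate), two-sided, with Benjamini-Hochberg adjustment over 18769 probe sets. The fit was tested on simulated data. Where a gene had several probe sets, the brightest on average stands for it. Probe sets of Clk, vri and Pdp1 carry the suffix _s_at, which marks probes that may match several transcripts. All 9 clock genes are named, and in each list up to 4 genes with the smallest p. dco was named besides, after its value was seen. Members and lists were chosen with earlier results of these data known. Alternatives were other scalings, filters, a floor, a variance trend, mean probe sets, left-out arrays and a block.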

Additional observations from a re-analysis of the deposited data

How the results depend on the processing

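No clock gene passed limma's adjusted threshold under any alternative run, and 0 of the 69 genes of the clock lists did. Clk, cry and Pdf kept their direction wherever their probe sets were kept, at 0.23 to 0.38, −0.47 to −0.34 and 0.21 to 0.41, with limma adjusted p from 0.132 to 0.554, 0.0832 to 0.454 and 0.238 to 0.599. The filter for the plain suffix _at left out Clk. Under quantile normalization and median centring, limma counted 2 clock genes at an unadjusted p under 0.05. Pdf then had limma unadjusted p of 0.076 and 0.073. Raising low values of each array to its 25th percentile gave 6 probe sets past the adjusted threshold, against 0. limma counted 3026 probe sets at an unadjusted p under 0.05, 1947 among those above the median signal, where fewer were tested, and 1666 to 4928 with 1 array left out. Leaving out 1 array gave 1 to 3 clock genes at that level, and not always the same ones. Without LCA replicate 3 they were Clk, cry and per (limma unadjusted p = 0.037 for per), and not Pdf (limma unadjusted p = 0.103). Signs turned in genes close to 0: Pdp1 under median centring (−0.0085), and with 1 array left out Pdp1 (−0.011 to 0.11), vri (−0.23 to 0.023), the dimmer tim probe set (−0.21 to 0.027) and the median of the cofactors (−0.10 to 0.062). The cause was not tested. Deviations of same-numbered pools correlated at 0.26, −0.02 and 0.02, and those of differently numbered pools at −0.28 to 0.26. With 3 pools per diet, these values cannot settle whether the numbers pair the pools. With the replicate number as a block, limma counted 3535 probe sets and 2 clock genes at an unadjusted p under 0.05, and 0 past the adjusted threshold. No background level is known for any probe set, so low signals such as those of per and the dimmer tim probe set may lie near it.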
